A study of Mus musculus with 10 samples.

Results

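The genes described here are 42 regulators of microtubules: microtubule-associated proteins (MAPs), stathmins, plus-end and minus-end binding proteins, severing enzymes, collapsin response mediators, tubulin folding cofactors and the enzymes that modify tubulin. They were chosen by name, as the rows of the deposited count table that carry one of 42 listed symbols. Each symbol was found once among 36115 genes, and all 42 had enough reads to be tested among 18965 genes. The study sequenced retinal RNA of mice at the age of 3 months that had received no treatment. The control group held 5 libraries labelled wild type, and the other group held 5 libraries labelled B6.129S2-Il6tm1Kopf/J, a line in which the gene of the cytokine interleukin-6 (IL-6) is interrupted in every cell. The labels give both groups a C57BL/6 strain background and give neither sex nor litter. Separate animals are not stated either, so each p-value rests on the spread among these libraries, part of which may be technical. Wild-type libraries are named W1 to W5, the libraries labelled knockout are named K1 to K5, both in accession order, and equal numbers pair nothing.

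Microtubules are hollow polymers of alpha- and beta-tubulin that carry transport along axons and dendrites and give neurons their shape. Structural MAPs bind along the polymer and stabilise it, with MAP2 placed mainly in dendrites and cell bodies and tau mainly in axons, while stathmins hold free tubulin dimers and favour shortening. In the retina, MAP2 is known from the dendrites of ganglion and amacrine cells, and ganglion cell axons form the optic nerve, the long projection that degenerates in glaucoma.

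Map2 (ENSMUSG00000015222.17, chromosome 1, 66175273 to 66442583, plus strand, GRCm38) was the member whose level differed between the groups, so the sequence just before its start is shown. The stretch chr1:66175079-66175272 (RefSeq, GRCm38.p6, plus strand) holds 194 bases and ends where the annotated gene begins. Capitals mark GC boxes, the letters GGGCGG or their complement CCGCCC, which are bound by factors of the Sp family in many promoters without a TATA box.
Map2 promoter: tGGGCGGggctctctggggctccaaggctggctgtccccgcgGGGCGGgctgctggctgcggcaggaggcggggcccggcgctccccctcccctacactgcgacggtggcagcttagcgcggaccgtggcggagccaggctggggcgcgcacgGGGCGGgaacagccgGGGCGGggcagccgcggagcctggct
These 194 bases hold 4 GC boxes and are 79.4% G or C. In the 250 bases before the RefSeq start site there were 5 GC boxes and 34 CpG pairs. Of 32851 mouse promoter windows of 250 bases, 32.7% hold a GC box and 1.93% hold at least as many as Map2. Among the members, windows of Agtpbp1 (8 GC boxes), Camsap1 (5) and Crmp1 (5) also hold at least as many, and none of these genes was called. STAT3, the transcription factor through which IL-6 signals, binds the letters TTCNNNGAA, which read the same on both strands. These letters were not in the Map2 window. Promoters were on hand for 31 members, 43 windows in all, of which 1 (2.33%), that of Tbcb, holds TTCNNNGAA, against 7.02% of all windows. GC boxes stood in 27 of the 43 windows (62.8%). Some members, such as Atat1 and Dcx, have windows that overlap each other. Whether either share differs from that of all windows was not tested. Such matches describe letters, not bound sites.

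Total counts were 30433373 to 38857374 per library. All listed markers of photoreceptors, of the 4 classes of inner retinal neurons and of Muller glia had reads in every library, as the label retina requires. Of 106 markers listed for 15 cell types and tissues, 97 had enough reads to be tested. None of these was called different between the groups, while 9 markers of lens, muscle and oligodendrocytes were too low to test. The bipolar marker Cabp5 came closest, lower by 25.7% in libraries labelled knockout (edgeR adjusted p = 0.0506). Some went the other way without passing, such as the cone marker Pde6c, higher by 65.5% (edgeR adjusted p = 0.15). Summed markers of retinal pigment epithelium, a layer next to the retina, ran from 33.4 to 410 CPM (a gene's reads scaled to the total of its library, with TMM factors) across W1 to W5 and from 171 to 332 CPM across K1 to K5. The 6 lens markers summed to at most 1.73 CPM in any library. Il6 itself went against the labels, since its reads numbered 0 to 1 per wild-type library and 3 to 7 per library labelled knockout, a difference of 0.15 on the log2(CPM + 1) scale (exact two-sided permutation test, p = 0.00794, the smallest that 5 against 5 libraries allow). Counts per gene do not separate the interrupted part of Il6 from the rest, so every direction below is that of the library labelled knockout.

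Of the 42 regulators, 1 was lower in the libraries labelled knockout, Map2, and none was higher. Across all tested genes, 1.17% were called lower and 0.859% higher at an adjusted p under 0.05 (edgeR quasi-likelihood test, Benjamini-Hochberg over 18965 genes). Before adjustment, 3 of the 42 (7.14%), Map2, Map7 and Tbcc, had a p under 0.05, against 13.8% of all tested genes. The wild-type and knockout-labelled libraries did not overlap in CPM in 1 of the 42 (2.38%), again Map2, against 3.48% of all tested genes. These counts are too small to set the members apart from the transcriptome. Log2 fold changes were positive in 20 members and negative in 22, with a median of -0.011, beside 0.002 for all tested genes. Their median size was 0.070 on the log2 scale, beside 0.115 for all tested genes. The median coefficient of variation of the members was 8.77% in wild type and 7.55% in libraries labelled knockout, beside 13.5% and 12.2% for all tested genes. Neither the median size nor this spread was compared with genes of like level. Whether the members vary less than such genes was not tested.

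The intervals of the differences bound what these libraries could hide. Of the 41 members not called, 33 had a 95% interval that stayed within a 1.25-fold change in either direction. The other 8 were Map1a, Stmn2, Dcx, Tbcc, Tbce, Ttl, Atat1 and Agbl4. Within a 1.5-fold change lay 40 of the 41 intervals, all but that of Agbl4, and within a 2-fold change lay all 41. None of the 41 intervals lay within a 1.1-fold change, so smaller differences than that cannot be placed by these data.

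**Figure D1:**
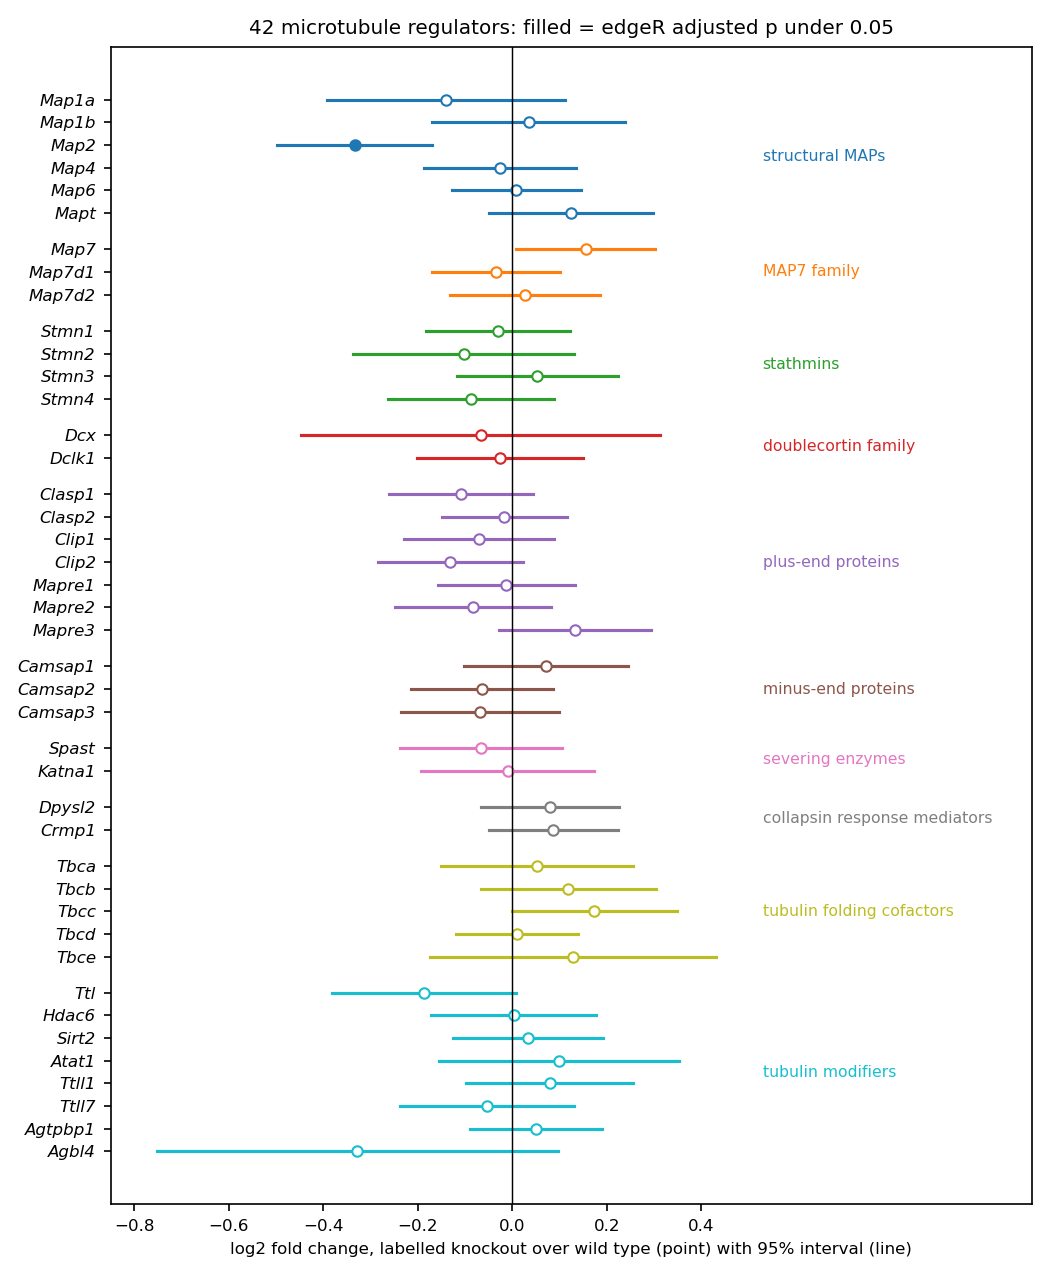
Log2 fold change of each of the 42 genes, libraries labelled knockout over wild type (points), with its 95% interval (lines), grouped by role and coloured by group; the filled point passed the adjusted threshold in edgeR's quasi-likelihood test. Map2 stands at -0.33 with an interval of -0.50 to -0.17, and the widest interval is that of Agbl4, from -0.75 to 0.10.

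Map2, the dendritic MAP, fell. Its level was 622, 615, 661, 591 and 595 CPM in W1 to W5 and 539, 509, 484, 495 and 421 CPM in K1 to K5. All 5 libraries labelled knockout lay below all 5 wild-type libraries, and K5 was the lowest of them. Wild type averaged 617 ± 27.8 CPM and the libraries labelled knockout 489 ± 43.4 CPM (SD, n = 5), a level lower by 20.6% in the fit. The log2 fold change was -0.33 ± 0.08 (SE) with a 95% interval of -0.50 to -0.17, an unadjusted p of 0.000574 and an edgeR adjusted p of 0.0357. In the authors' deposited table, Map2 had a log2 fold change of -0.31 with an adjusted p of 0.00186, and it was the 1 member with an adjusted p under 0.05 there. In bulk retina, fewer cells that express Map2 and less Map2 RNA per cell cannot be told apart.

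The direction of the Map2 difference held in all 17 alternative fits, from -0.37 to -0.28, while its call did not hold in all of them. All 6 alternative fits to the 10 libraries called it, with adjusted p from 0.0020 in DESeq2 to 0.0317. Of the 10 fits that leave out 1 library, 2 called it, without W2 (adjusted p = 0.0355) and without K1 (0.0233). The call was lost without W1 (0.073), W3 (0.106), W4 (0.0535), W5 (0.0521), K2 (0.0585), K3 (0.0881), K4 (0.0908) or K5 (0.0865), and without W5 and K5 together (0.116). K5, the lowest library for Map2, is also the library whose label gives a different second index from the rest, and without it the log2 fold change was -0.28. A single library thus did not set the direction, and removing most single libraries moved the adjusted p past 0.05.

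**Figure D2:**
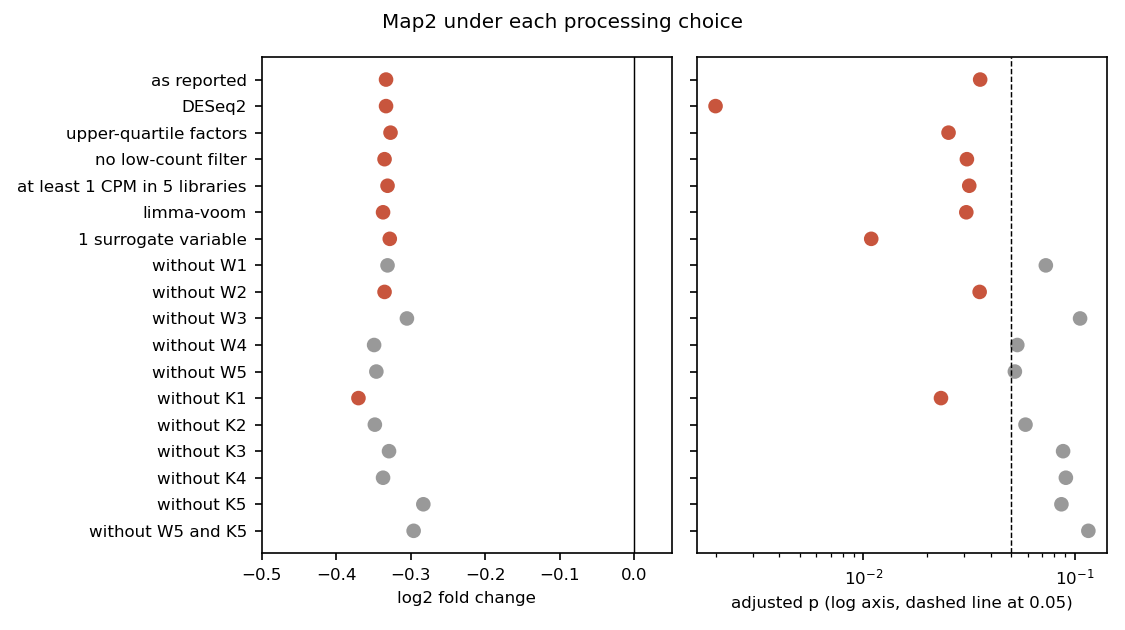
Map2 in the reported fit and in 17 alternatives (rows): log2 fold change on the left, adjusted p on a log axis on the right, with a dashed line at 0.05; red points are called and grey points are not. The fold changes lie between -0.37 and -0.28, and the adjusted p runs from 0.0020 (DESeq2) to 0.116 (without W5 and K5).

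The other structural MAPs did not pass the test. Map4, the MAP found in most cell types, was measured at 984, 1000, 940, 966 and 1040 CPM in W1 to W5 and at 1000, 935, 1080, 938 and 891 CPM in K1 to K5. The groups overlapped, with K1 inside the wild-type range, K2, K4 and K5 below it and K3 above it. The log2 fold change was -0.03 ± 0.08 (SE). Map1a, a MAP of mature dendrites and axons, stood at 207 ± 29.6 CPM and 188 ± 34.2 CPM. Map1b, its relative in growing axons, stood at 957 ± 108 CPM and 981 ± 99.3 CPM. Map6, which protects microtubules from cold, stood at 128 ± 7.20 CPM and 128 ± 6.59 CPM. Mapt, which encodes tau, stood at 221 ± 22.1 CPM and 241 ± 19.6 CPM, a log2 fold change of 0.12 with an interval of -0.05 to 0.30 (n = 5 in each group, wild type first). The median log2 fold change of the 6 structural MAPs was -0.008.

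Because a library's scaling cancels in a ratio of genes within it, Map2 was also set against the other structural MAPs library by library, a comparison chosen after its values were seen and given without a test. The ratio of Map2 to Mapt, a dendritic over an axonal MAP, was 2.42, 3.05, 2.96, 2.88 and 2.74 across the wild-type libraries. It was 2.38, 2.35, 1.82, 1.97 and 1.73 across K1 to K5. The lowest wild-type ratio, that of W1, lay just above the highest ratio of a library labelled knockout, that of K1. The mean log2 ratio was 1.49 in wild type and 1.02 in libraries labelled knockout. Map2 over Map4 ran from 0.573 to 0.703 in wild type and from 0.448 to 0.545 in libraries labelled knockout, also without overlap. Map2 over Map1b ran from 0.534 to 0.713 and from 0.454 to 0.599, Map2 over Map6 from 4.27 to 5.53 and from 3.34 to 4.28, and Map2 over Map1a from 2.32 to 3.34 and from 1.99 to 3.29, each with some overlap. The mean log2 ratio was lower in the libraries labelled knockout for all 5 partners, by 0.19 for Map1a and by 0.31 to 0.46 for the rest. Map2 stands in every ratio and carries its own difference into each, so these are not 5 separate results.

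**Figure D3:**
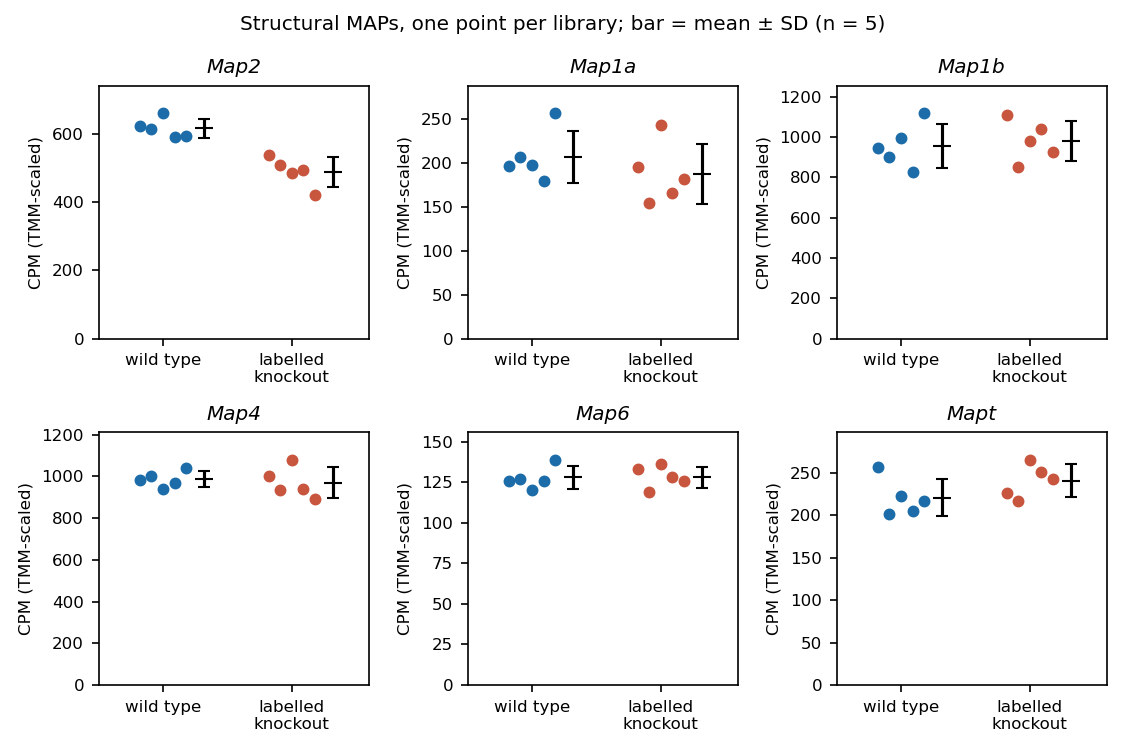
TMM-scaled CPM of the 6 structural MAPs in each library (points, blue for wild type and red for libraries labelled knockout), with the mean and SD of each group beside them (black, n = 5). The groups are apart for Map2, 591 to 661 against 421 to 539 CPM, and overlap for Map1a, Map1b, Map4, Map6 and Mapt.

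Of the MAP7 family, whose members recruit the motor kinesin-1 to microtubules, Map7 had the smallest p. Its level was 253, 221, 250, 250 and 244 CPM in W1 to W5 and 251, 274, 259, 298 and 274 CPM in K1 to K5. The 4 libraries K2 to K5 lay above every wild-type library, while K1 lay among them. The log2 fold change was 0.16 ± 0.07 (SE), with an unadjusted p of 0.0385 and an edgeR adjusted p of 0.325. Map7d1 and Map7d2 had log2 fold changes of -0.03 and 0.03.

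The stathmins did not pass the test, and their order of level was the same in both groups. Per kb of exon, Stmn3 made up 58.5% ± 1.08 of the summed stathmin level in wild type and 60.2% ± 1.57 in libraries labelled knockout (SD, n = 5). Stmn1 made up 29.5% ± 1.08 and 28.7% ± 1.73, Stmn4 6.5% ± 0.95 and 6.03% ± 0.21, and Stmn2 5.51% ± 0.68 and 5.10% ± 0.40. The shares of Stmn4 and Stmn2 overlapped within 1 SD in wild type and were apart by more than that in libraries labelled knockout. These shares depend on the length used. Per kb of the longest transcript, over both groups, Stmn3 stood at 118 and Stmn1 at 105 CPM, and Stmn4 at 17.4 and Stmn2 at 17.3 CPM. Stmn3, a membrane-anchored neuronal stathmin, was measured at 112, 143, 141, 119 and 143 CPM in W1 to W5 and at 147, 137, 134, 128 and 135 CPM in K1 to K5. Its groups overlapped, with a log2 fold change of 0.05 ± 0.08 (SE). Stmn4, another neuronal stathmin, was measured at 23.2, 22.5, 28.6, 25.8 and 22.1 CPM and at 23.7, 22.6, 23.7, 22 and 23.1 CPM. The libraries labelled knockout lay inside or at the edge of the wild-type range, with a log2 fold change of -0.09 ± 0.08 (SE). Stmn2, also called SCG10 and known for its role in axon growth and maintenance, stood at 61.2 ± 11.6 CPM and 57.0 ± 5.11 CPM. Stmn1, the founding member, stood at 112 ± 9.70 CPM and 110 ± 6.33 CPM. A processed pseudogene, Gm11223, is 99.8% identical to Stmn1 over 450 bases and stood at 2.49 ± 0.25 CPM and 1.49 ± 0.38 CPM (edgeR adjusted p = 0.0697). Its reads and those of Stmn1 may not be separable, and they came to 1.79% of the Stmn1 reads.

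Of the doublecortin family, Dcx, a marker of young migrating neurons, was low in the adult retina. It was measured at 5.92, 3.25, 4.41, 6.59 and 3.97 CPM in W1 to W5 and at 4.30, 4.46, 4.82, 4.74 and 4.75 CPM in K1 to K5. The wild-type libraries spread more widely (coefficient of variation 28.8%) than the libraries labelled knockout (4.81%), whose values all lay inside the wild-type range. Dclk1, a doublecortin relative with a kinase domain, was measured at 104, 121, 94.0, 115 and 114 CPM and at 112, 93.9, 116, 115 and 100 CPM. Its groups overlapped, with a log2 fold change of -0.03 ± 0.08 (SE).

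Plus-end proteins gather at the growing tip of the microtubule, and none of the 7 passed the test. Log2 fold changes were negative in 6 of them, with a median of -0.071, although Clasp2 and Mapre1 reached 0.007 and 0.039 when 1 library was left out. Clip2, also called CLIP-115, had the smallest p of the 7. It was measured at 70.6, 65.3, 66.3, 66.2 and 74.3 CPM in W1 to W5 and at 69.6, 60.6, 67.4, 55.8 and 59.5 CPM in K1 to K5. K2, K4 and K5 lay below every wild-type library and K1 and K3 among them, with a log2 fold change of -0.13 ± 0.07 (SE) and an unadjusted p of 0.0904. Mapre3, the neuron-enriched end-binding protein EB3, was the 1 with a positive log2 fold change, 0.13 ± 0.08 (SE). It was measured at 242, 219, 255, 268 and 270 CPM and at 253, 261, 276, 295 and 290 CPM. K3, K4 and K5 lay above every wild-type library and K1 and K2 among them. Clasp1, Clasp2, Clip1, Mapre1 and Mapre2 had log2 fold changes from -0.11 (Clasp1) to -0.01 (Mapre1).

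Minus-end proteins of the CAMSAP family cap and stabilise microtubules that are not held by a centrosome. Camsap1 was measured at 394, 306, 389, 390 and 384 CPM in W1 to W5 and at 396, 429, 390, 364 and 377 CPM in K1 to K5. W2 stood alone below all other libraries, and without it the log2 fold change went from 0.07 to 0.01. Camsap2 was measured at 159, 145, 145, 134 and 141 CPM and at 145, 143, 147, 137 and 121 CPM. Its groups overlapped, with W1 above every library labelled knockout and K5 below every wild-type library. The log2 fold change was -0.06 ± 0.07 (SE). Camsap3 stood at 32 ± 2.71 CPM and 30.5 ± 2.30 CPM.

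Severing enzymes cut microtubules along their length. Spast, which encodes spastin, an enzyme mutated in hereditary spastic paraplegia, was measured at 64.8, 69.2, 75.7, 66.2 and 65.1 CPM in W1 to W5 and at 71.7, 73.8, 59.1, 64.2 and 57.0 CPM in K1 to K5. K1 and K2 lay inside the wild-type range, and K3, K4 and K5 lay below it. Its log2 fold change was -0.07 ± 0.08 (SE), and that of Katna1, the catalytic subunit of katanin, was -0.01 ± 0.09 (SE).

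The collapsin response mediators relay signals that guide growing axons. Dpysl2, also called CRMP2, which binds tubulin dimers, was measured at 160, 162, 188, 160 and 171 CPM in W1 to W5 and at 178, 185, 171, 190 and 165 CPM in K1 to K5. Crmp1 was measured at 133, 135, 130, 136 and 139 CPM and at 138, 150, 154, 145 and 129 CPM. In both genes the groups overlapped, with log2 fold changes of 0.08 ± 0.07 and 0.09 ± 0.06 (SE).

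Tubulin folding cofactors assemble alpha- and beta-tubulin into dimers, and none of the 5 passed the test. All 5 log2 fold changes were positive, from 0.01 (Tbcd) to 0.17 (Tbcc), with a median of 0.119, although Tbcd and Tbce reached -0.010 and -0.002 when 1 library was left out. Tbcc, which drives release of the finished dimer, was measured at 43.7, 53.1, 55.3, 49.7 and 48.7 CPM in W1 to W5 and at 55.2, 48.2, 56.9, 60.2 and 62.4 CPM in K1 to K5. K3, K4 and K5 lay above every wild-type library and K2 lay among the lower ones. The log2 fold change was 0.17 ± 0.08 (SE), with an unadjusted p of 0.0499 and an edgeR adjusted p of 0.362. For Tbce, W2 was again the low library, with 19.7 CPM against 32.6 to 37.0 CPM in the other wild-type libraries. Without W2 the log2 fold change of Tbce went from 0.13 to -0.002. Tbcb, Tbcd and Tbce share exon bases with a protein-coding gene on the opposite strand (Polr2i, B3gntl1 and B3galnt2), as do Map1a (Ppip5k1), Camsap3 (Xab2) and Sirt2 (Nfkbib). The sources used here do not say whether the authors' counting used strand, so reads of such pairs may be mixed. The antisense gene Gm10558, which shares 124 exon bases with Map2, had 515 reads over all libraries, 0.265% of the Map2 reads.

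Tubulin modifiers write and erase the chemical marks of the polymer, and none of the 8 passed the test. Ttl, the ligase that restores the terminal tyrosine of alpha-tubulin, was measured at 15, 13.9, 14.2, 13.1 and 15.8 CPM in W1 to W5 and at 13.7, 13.7, 12.7, 11.8 and 11.4 CPM in K1 to K5. K3, K4 and K5 lay below every wild-type library and K1 and K2 among them. Its log2 fold change was -0.19 ± 0.09 (SE), with an unadjusted p of 0.0591 and an edgeR adjusted p of 0.388. Sirt2, a deacetylase of alpha-tubulin, was measured at 116, 96.7, 123, 120 and 120 CPM and at 110, 114, 116, 123 and 128 CPM. W2 was the low library here too, and the log2 fold change was 0.03 with it and -0.02 without it. The acetyltransferase Atat1 stood at 27.7 ± 5.19 CPM and 29.7 ± 3.40 CPM, and the deacetylase Hdac6 at 66.1 ± 7.31 CPM and 66.2 ± 4.8 CPM. The glutamylases Ttll1 and Ttll7, which add glutamate chains, had log2 fold changes of 0.08 and -0.05. The deglutamylase Agtpbp1, whose loss causes Purkinje cell degeneration in mice, had a log2 fold change of 0.05. Agbl4, a second deglutamylase, was near the detection limit with 0.891 to 1.25 CPM in wild type and 0.734 to 1.01 CPM in the other group, and its log2 fold change of -0.33 had an interval of -0.75 to 0.10.

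Levels between genes were compared per kb of exon, as CPM divided by the length of all annotated exons. Stmn3 was highest at 116 ± 13.3 CPM per kb in wild type and 120 ± 6.08 in libraries labelled knockout. Mapre3 (72.5 ± 6.06), Map4 (65.1 ± 2.46), Map1b (60.4 ± 6.81) and Stmn1 (58.3 ± 5.04 CPM per kb in wild type) followed, and these 4 overlapped their neighbours within 1 SD in wild type, while Mapre3 stood apart from Map4 in libraries labelled knockout (79.5 ± 5.22 and 64 ± 4.84). Map2 ranked 10 of 42, with 37.5 ± 1.69 CPM per kb in wild type and 29.8 ± 2.64 in libraries labelled knockout. At the low end stood Ttl (2.42 ± 0.17), Dcx (0.382 ± 0.110) and Agbl4 (0.119 ± 0.015 CPM per kb in wild type), each apart from the next. With the length of the longest transcript in place of all exons, Map4 came first at 160 CPM per kb over the 10 libraries, Map2 rose to 88.4, and the 3 lowest kept their places.

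**Figure D4:**
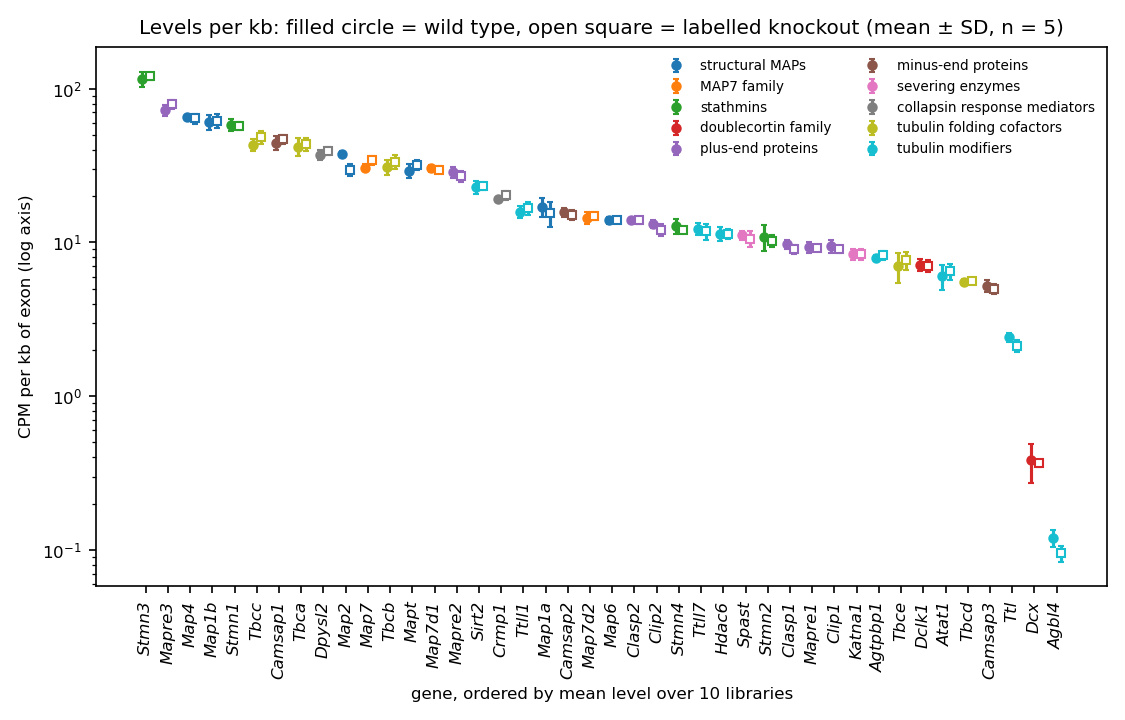
CPM per kb of exon on a log axis for the 42 genes, ordered by their mean over the 10 libraries and coloured by role; filled circles are wild type and open squares libraries labelled knockout, with bars for the SD (n = 5). Stmn3 leads at 116 CPM per kb in wild type, and Ttl, Dcx and Agbl4 lie below all others.

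Across libraries, the correlation with ganglion cell markers was highest for Stmn2, Map1b and Map1a among the 42 members, and that of Map2 was near 0. The marker level was the summed CPM of Rbpms, Pou4f1, Pou4f2, Pou4f3, Slc17a6, Thy1, Sncg, Nefl, Nefm and Nefh, of which 2 had a higher mean in libraries labelled knockout and none was called. The sums were 810, 877, 1040, 792 and 1170 CPM in W1 to W5 and 1010, 786, 1060, 919 and 950 CPM in K1 to K5, so the groups overlapped. Marker by marker, 8 of the 10 log2 fold changes were negative and 2 positive. Their median was -0.131, from -0.402 (Sncg) to 0.158 (Nefl). Nefl had the highest level of the 10 and weighs most in the sums, so overlapping sums do not show that each marker was level. After subtracting each group's mean, Stmn2 gave a Pearson r of 0.92 and a Spearman rho of 0.89 over 10 libraries. Map1a gave r = 0.81 and rho = 0.84, Map1b r = 0.82 and rho = 0.79, Agtpbp1 r = 0.73 and rho = 0.72, and Map2 r = 0.03 and rho = -0.04. These genes were picked from 42 relations after their values were seen, and both axes share the scaling of their library, so the correlations are a description with no test. Without W5 and K2, the libraries farthest from the median marker level, r was 0.90 for Stmn2, 0.65 for Map1a, 0.64 for Map1b and 0.32 for Map2. Amacrine cells were also named above for MAP2, without that list being complete. Their markers summed to 888 to 998 CPM across W1 to W5 and to 820 to 967 CPM across K1 to K5. Of these 8 markers, 3 were higher on average in libraries labelled knockout, 5 were lower and none was called. Their log2 fold changes had a median of -0.064, from -0.232 (Gad2) to 0.094 (Slc32a1). Whether cell composition has a part in the Map2 difference was not tested.

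**Figure D5:**
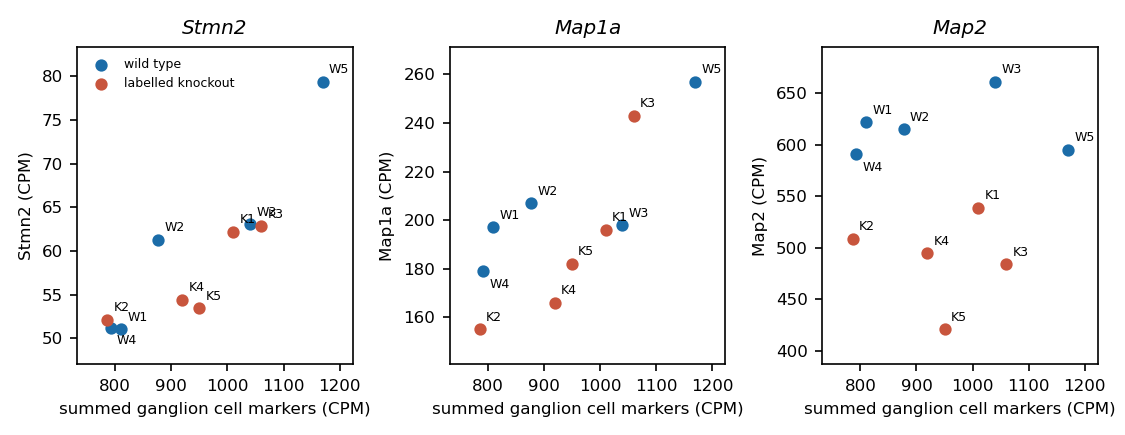
CPM of Stmn2, Map1a and Map2 (vertical axes) against the summed CPM of 10 ganglion cell markers (horizontal axes), with a labelled point for each library, blue for wild type and red for libraries labelled knockout. Stmn2 and Map1a are highest in W5, which has the highest marker sum of 1170 CPM. Map2 lies at 591 to 661 CPM in wild type and at 421 to 539 CPM in libraries labelled knockout. No library labelled knockout has a marker sum as high as that of W5.

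Beyond the 42, 88 further microtubule regulators were listed for their function, with earlier results of these data known. Of the 88, 87 were matched in the table and 82 were tested. Of these 82, 1 fell, Mtus1, and none rose, against 1.17% and 0.859% of all tested genes. Mtus1, which encodes a microtubule-binding partner of the angiotensin type 2 receptor, was measured at 124, 114, 127, 130 and 109 CPM in W1 to W5 and at 92.2, 106, 97.8, 93.2 and 80.2 CPM in K1 to K5. All libraries labelled knockout lay below all wild-type libraries, by a narrow margin between K2 and W5. The log2 fold change was -0.37 ± 0.08 (SE) with an edgeR adjusted p of 0.0252. The call held in 12 of 17 alternative fits, with adjusted p from 0.0023 to 0.0717, and was lost without W1, W3, W4, K4 or K5 (0.0567, 0.0627, 0.0601, 0.0717 and 0.0598). Ttbk2, a tau-tubulin kinase needed to build cilia, was measured at 103, 101, 106, 108 and 103 CPM and at 90, 89.6, 90.2, 93.9 and 85.7 CPM, without overlap. It did not pass the adjusted threshold (log2 fold change -0.21 ± 0.06 SE, edgeR adjusted p = 0.0676), and it did pass in DESeq2 and with a surrogate variable. An unadjusted p under 0.05 was reached by 12 of the 82 (14.6%), close to the 13.8% of all tested genes. Groups did not overlap in 2 of the 82 (2.44%), Mtus1 and Ttbk2, against 3.48% of all tested genes.

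Genes with the smallest p in other lists did not pass the test. Dpysl3, the collapsin response mediator CRMP4, stood at 386 ± 62.4 CPM and 316 ± 28.6 CPM (edgeR adjusted p = 0.192). Svbp, the partner of the vasohibin enzymes that remove the terminal tyrosine of alpha-tubulin, stood at 5.89 ± 0.99 CPM and 7.34 ± 0.93 CPM (0.330). Tubg2, a gamma-tubulin, stood at 29.6 ± 2.71 CPM and 34.2 ± 2.85 CPM (0.259), and Katnbl1, a katanin regulator, at 23.7 ± 1.81 CPM and 25.9 ± 3.83 CPM (0.636).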

How the data were processed

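Retinal RNA was sequenced as 100 bp read pairs, and the authors deposited unnormalized whole-number read counts per gene for 10 libraries. Tools named in the submitters' processing notes include STAR 2.5.3a, featureCounts 1.15.2 and DESeq2 1.14, and the build is GRCm38.p5. How strand and multiply matching reads were treated is not given in the sources. The authors' own comparison stands beside the counts, per the file headers. Its deposited log2 fold changes and deposited p-values are quoted for Map2 only, and its deposited mean signal of size-factor-scaled counts, by the authors, was not used.

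The 42 members and the further lists were chosen with earlier results of these data known. All genes were fitted with edgeR 4.0.16 in R 4.3.3: filterByExpr (minimum count 10, minimum total 15), TMM factors (0.954 to 1.04), the quasi-likelihood test with genotype as the sole term, and Benjamini-Hochberg adjustment over 18965 genes. SE is the absolute log2 fold change over the square root of F. Levels are TMM-scaled CPM. The fit was tested on simulated data. Identifiers were matched to GENCODE M21 (35980 of 36115 found), which gave exon lengths and overlaps, and 25 symbols turned into dates were repaired.

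Members given library by library are those called, those whose groups do not overlap, and in each role the smallest p and the highest level per kb. Of the further lists, called genes and the smallest p of each list are named, apart from a gene that is not reported here. Tbce, Stmn2, Map1a and Map1b are also described because their values stood out once seen, as are the Map2 ratios and the relation to ganglion markers. Alternatives were DESeq2 1.42.0, upper-quartile factors, no filter, at least 1 CPM in 5 libraries, limma 3.58.1 voom, 1 surrogate variable (sva 3.50.0), leaving out each library, and leaving out W5 and K5, a pair an earlier look at these data had set apart. No 2 libraries of a group agreed within sampling noise.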

Additional observations from a re-analysis of the deposited data

Results flagged for a closer look

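In 84 groups of 5 libraries, 42 genes in 2 groups each, 4 values lay farther from the rest of their group than Dixon's critical ratio of 0.71 allows, and chance flags about 1 in 20 such groups. Of these, 3 were low values of the same wild-type library, W2. Camsap1 had 306 CPM in W2 against 384 to 394 CPM in the other wild-type libraries. Tbce had 19.7 CPM in W2 against 32.6 to 37.0 CPM. Sirt2 had 96.7 CPM in W2 against 116 to 123 CPM. W2 was the lowest wild-type library for 17 of the 42 genes, W4 for 14 and W5 for 1. The fourth value was that of Agbl4 in W1, 0.891 CPM against 1.17 to 1.25 CPM in the other wild-type libraries.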

How the results depend on the processing

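No paired analysis was possible because the labels carry no replicate numbers that groups share. The count of members called higher was 0 in all 17 alternatives. Members called lower were 0 without W5 and K5 and 0 to 1 when 1 library was left out, and Map2 was the 1 called elsewhere. No member other than Map2 was called in any alternative. Genes called higher numbered 319 in DESeq2, 298 with no filter, 303 under a fitted surrogate variable and 107 without W5 and K5, against 163 as reported. Genes called lower numbered 444, 406 and 355 in the first 3 of these, against 222. Leaving out 1 library gave 71 to 253 genes higher and 140 to 289 lower. Further regulators called lower numbered 2 in DESeq2, 2 with 1 surrogate variable and 0 to 3 when 1 library was left out.

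The log2 fold changes of 19 members, none of them called and none above 0.128 in size, took the other sign in at least 1 alternative, and those of 23 kept it in all 17. Of members given library by library, the sign turned for Map4 (-0.067 to 0.004 over fits that leave out 1 library, the latter without K5, and 0.024 without W5 and K5), Stmn3 (-0.001 without W1, to 0.086), Dcx (-0.18 to 0.073, positive at 0.014 without W1 and at 0.073 without W4), Dclk1 (-0.075 to 0.019, positive at 0.011 without W2, 0.019 without K2, 0.011 without W5 and K5) and Sirt2 (-0.023 without W2, to 0.06). Fits with fewer libraries have fewer degrees of freedom, and the cause of the lost Map2 calls was not tested further. Il6 kept its direction on the log2(CPM + 0.1) scale, with a difference of 0.945. Depth limits Agbl4 most, at about 1 CPM, and Il6, at 0 to 7 counts.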
